A study of Homo sapiens with 36 samples.

Results

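The genes described here were 10 parts of the TGF-beta pathway, taken from the table of estimated counts by gene symbol: the ligand genes TGFB1, TGFB2 and TGFB3, the receptor genes TGFBR1, TGFBR2 and TGFBR3, the signal genes SMAD3 and SMAD7, and TGFBI and INHBA, which TGF-beta is known to induce. They were 10 of 27852 genes with a symbol, and all 10 were found. The values of their 79 transcripts were summed per gene and divided by the library total. A level of a gene across cultures is given as CPM, the count scaled by the library total to a common size, and levels of different genes are compared as TPM, which also corrects for transcript length.

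RNA from 36 cultures of 4 human prostate cancer (PCa) lines was sequenced after 5 days. C4-2 and C4-2B stood for osteoblastic disease (BPCa) and DU145 and 22Rv1 for osteolytic disease (LPCa). Each line was grown alone (mono-culture, n = 3), beside MG63 cells (n = 2), alone with RANKL at 50 ng/mL (n = 2), or beside RAW264.7 cells with RANKL (n = 2). The co-cultures shared medium across a filter in a horizontal chamber.

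MG63 cells come from a human osteosarcoma and served as a stand-in for osteoblasts. RAW264.7 cells are murine macrophages that can become osteoclast-like when given RANKL, here the recombinant mouse cytokine. Each phenotype thus rested on a pair of lines, and C4-2B is a derivative of C4-2, so the phenotype and the line cannot be told apart. The labels number the cultures of a group without saying that they were separate biological cultures, so the p-values measure the spread between these samples, which may be technical. In a bulk lysate, fewer cells expressing a gene and less RNA per cell cannot be told apart.

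TGF-beta is secreted in a latent form and stored in matrix, of which bone is a rich source. Once released, the ligand binds the type II receptor, with the co-receptor betaglycan presenting it, and the type II receptor activates the type I receptor, which phosphorylates SMAD2 and SMAD3. These move to the nucleus with SMAD4, and SMAD7 is among the induced genes and feeds back as an inhibitor. In bone metastasis the pathway is known for linking matrix breakdown to tumour cell growth.

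The mono-cultures without RANKL held 23932472 to 36719047 counts per library and the other 24 libraries 9593426 to 15418211, a ratio of medians of 2.46, so depth went with the comparison against mono-culture. A count of 3, taken as the detection limit, was at most 0.125 CPM in these mono-cultures and at most 0.313 CPM elsewhere. KLK3, the gene of prostate-specific antigen, averaged 4694 and 5419 CPM in the C4-2 and C4-2B mono-cultures, 56.8 CPM in 22Rv1 and 6.64 CPM in DU145. The summed level of 16 MG63 marker genes in MG63 co-cultures ranged from 10.7 to 16.1 CPM in C4-2, C4-2B and DU145 and from 59.6 to 64.3 CPM in 22Rv1, where mono-cultures had 46.1 to 51.0 CPM, and 4 to 8 of the 16 were at or under 3 counts. The summed level of 12 macrophage and osteoclast markers was 63.6 to 68.0 CPM in DU145 beside RAW264.7 cells and 65.2 to 67.5 CPM in DU145 alone with RANKL. The DU145 co-cultures with MG63 cells stood apart from each other, with summed levels of 4 epithelial markers of 868 and 1465 CPM against 1053 to 1082 CPM in DU145 mono-cultures. The part of these markers in the results below was not tested.

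The windows upstream of RefSeq gene starts are shown for a ligand, a receptor and a SMAD that were all most abundant in DU145, to let their base composition be compared. They hold the 250 bases before the start on GRCh38.p14, 5′ to 3′ on the strand of the gene, and overlap no exon of GENCODE 29. The sequence just after each start was found in no GENCODE 29 transcript of its gene. The SMAD3 window lies within the GENCODE span of that gene, which begins at 67063763. Capitals mark GGGCGG or its complement CCGCCC, the GC box known to bind Sp1 family factors.
TGFB1, chr19:41353923-41354172, minus strand: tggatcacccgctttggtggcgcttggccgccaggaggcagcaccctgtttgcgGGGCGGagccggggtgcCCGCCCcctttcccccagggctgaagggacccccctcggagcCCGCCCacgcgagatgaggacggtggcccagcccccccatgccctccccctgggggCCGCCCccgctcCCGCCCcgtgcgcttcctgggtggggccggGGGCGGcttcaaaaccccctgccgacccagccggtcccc
TGFBR2, chr3:30606106-30606355, plus strand: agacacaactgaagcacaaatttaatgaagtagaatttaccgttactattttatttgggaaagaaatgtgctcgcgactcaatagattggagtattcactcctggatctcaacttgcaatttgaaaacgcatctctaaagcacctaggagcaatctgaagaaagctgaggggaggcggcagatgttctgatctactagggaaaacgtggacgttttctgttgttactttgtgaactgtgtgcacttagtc
SMAD3, chr15:67065352-67065601, plus strand: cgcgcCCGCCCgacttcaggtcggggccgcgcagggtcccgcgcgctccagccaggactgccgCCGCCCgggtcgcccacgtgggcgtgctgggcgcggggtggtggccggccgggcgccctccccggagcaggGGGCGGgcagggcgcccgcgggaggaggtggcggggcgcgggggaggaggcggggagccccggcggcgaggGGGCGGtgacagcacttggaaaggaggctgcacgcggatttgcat

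The TGFB1 window held 6 GC boxes and 76.8% G and C bases, the SMAD3 window 4 and 80.8%, and the TGFBR2 window none and 40.8%. Among all 27305 windows of that length, 42% held at least 1 GC box. The SMAD box CAGAC, or GTCTG on the other strand, was found in the windows of TGFB2, TGFB3, TGFBR1 and SMAD7 and in 37.8% of all windows. All 250 bases of the SMAD7 window and 24 of the TGFBR1 window lie in exons of the same gene in GENCODE 29. The palindrome GTCTAGAC and the AP-1 motif TGANTCA were in none of the 10 members' windows, and in 0.176% and 6.60% of all windows.

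In mono-culture, DU145 had the highest levels of TGFB1, TGFB2, TGFBR1, TGFBR2, SMAD3 and TGFBI, while 22Rv1 had the highest TGFB3 and SMAD7 and C4-2B the highest TGFBR3. Between C4-2 and C4-2B, 1 of the 9 members that could be tested was called. INHBA did not reach 100 counts in any library and was not tested, so 9 members entered each comparison. Over the 6 pairs of lines, 44 of 54 member tests passed a Benjamini-Hochberg adjusted p of 0.05 in edgeR's quasi-likelihood test.

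The background for these counts was high, because the lines differed in most genes. DU145 differed from 22Rv1 in 9 of 9 members, where 79.6% of all 13437 genes tested differed, and from C4-2B in 9 of 9 (79.0% of all genes). DU145 differed from C4-2 in 7 of 9 members (78.3%). 22Rv1 differed from C4-2 in 9 of 9 (72.0%) and from C4-2B in 9 of 9 (72.5%). C4-2B differed from C4-2 in 1 of 9, against 13.6% of all genes. These counts of 9 members were not tested against the shares of all genes, and the particular values of the members are what follows.

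**Figure D1:**
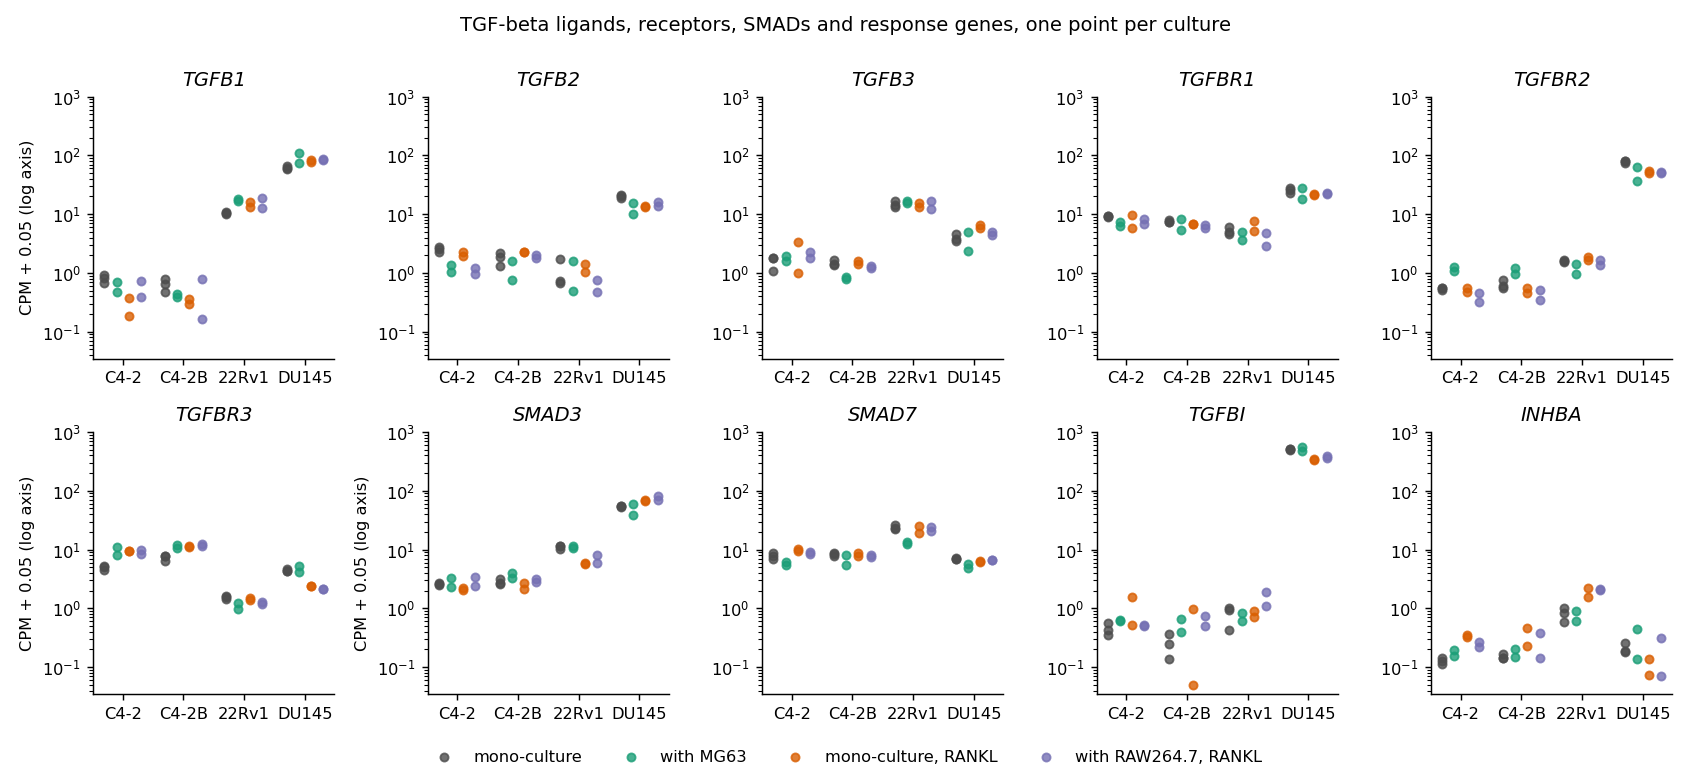
Each panel shows 1 gene in the 4 lines, with 1 point per culture coloured by the culture. The vertical axis is CPM with 0.05 added, on a log axis. The DU145 points of TGFB1, TGFBR2, SMAD3 and TGFBI lie above every point of the other lines, and INHBA is at or under 0.419 CPM in every culture outside 22Rv1.

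TGFB1 encodes the most widely expressed TGF-beta ligand and lies at chr19:41301587-41353911 on the minus strand of GRCh38. Its level was 59.3, 60.8 and 66.0 CPM in the 3 DU145 mono-cultures, 10.2, 10.5 and 10.8 CPM in 22Rv1, 0.615, 0.756 and 0.878 CPM in C4-2, and 0.420, 0.593 and 0.745 CPM in C4-2B. The groups did not overlap except those of C4-2 and C4-2B. The log2 difference of DU145 from 22Rv1 was 2.58 ± 0.12 (SE, adjusted p = 6.61e-12, edgeR), and that of 22Rv1 from C4-2 was 3.74 ± 0.18 (adjusted p = 1.37e-11). C4-2B and C4-2 differed by -0.28 ± 0.27 (adjusted p = 0.588).

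TGFB2, which encodes the ligand that depends most on betaglycan for binding, lies at chr1:218346235-218444619 on the plus strand. DU145 mono-cultures had 19.1, 20.3 and 20.8 CPM, C4-2 had 2.20, 2.48 and 2.75 CPM, C4-2B 1.25, 1.84 and 2.15 CPM, and 22Rv1 0.637, 0.691 and 1.68 CPM. The DU145 cultures were above all others, by 4.37 ± 0.33 on the log2 scale against 22Rv1 (adjusted p = 3.41e-09), and TGFB2 reached the limit of 100 counts in DU145 alone. The C4-2B and 22Rv1 cultures overlapped, and their difference of -0.92 ± 0.37 for 22Rv1 minus C4-2B (adjusted p = 0.0342) was lost when 22Rv1 replicate 1 or 3 or C4-2B replicate 2 or 3 was left out (adjusted p = 0.127, 0.158, 0.076 and 0.121).

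TGFB3 lies at chr14:75958099-75982991 on the minus strand and encodes the remaining ligand isoform. It was highest in 22Rv1, with 13.2, 14.4 and 16.7 CPM, then in DU145 with 3.46, 3.77 and 4.61 CPM. C4-2 had 1.04, 1.73 and 1.76 CPM and C4-2B 1.3, 1.36 and 1.58 CPM, which overlapped. The log2 difference of DU145 from 22Rv1 was -1.89 ± 0.20 (adjusted p = 1.97e-07). In 22Rv1, 41.4% of the TGFB3 counts came from its 2 protein-coding transcripts, and in DU145 32.0%. A non-coding transcript of 716 bases held 41.0% of all TGFB3 counts over the 36 libraries.

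Compared per length, the order of the ligands depended on the transcripts counted. Over all transcripts TGFB1 in DU145 was at 35.2 ± 5.4 TPM (SD, n = 3) with TGFB2 at 6.98 ± 1.8 TPM and TGFB3 at 6.38 ± 1.7 TPM. In 22Rv1 TGFB3 was at 16.3 ± 2.7 TPM and TGFB1 at 8.27 ± 0.69 TPM, but over protein-coding transcripts alone the order turned, with TGFB3 at 2.29 to 2.73 TPM and TGFB1 at 3.45 to 5.99 TPM. In C4-2 TGFB3 was at 1.75 ± 0.16 TPM and TGFB1 at 0.616 ± 0.11 TPM, and over coding transcripts TGFB3 was at 0.201 to 0.292 TPM and TGFB1 at 0.533 to 0.739 TPM. In C4-2B coding TGFB1, at 0.151 to 0.857 TPM, overlapped TGFB2 and TGFB3. In DU145 coding TGFB1 was at 21.7 to 24.6 TPM, TGFB2 at 2.96 to 3.40 TPM and TGFB3 at 0.347 to 0.548 TPM.

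TGFBR1 encodes the type I receptor kinase and lies at chr9:99104038-99154192 on the plus strand. It was at 23.2, 26.2 and 27.7 CPM in DU145. C4-2 had 9.04, 9.08 and 9.31 CPM, C4-2B had 7.20, 7.31 and 7.85 CPM, and 22Rv1 had 4.58, 4.84 and 6.02 CPM. The 4 groups did not overlap, and C4-2B and C4-2 differed by -0.25 ± 0.16 on the log2 scale (adjusted p = 0.399). DU145 stood 1.46 ± 0.16 above C4-2 (adjusted p = 3.05e-07), and 22Rv1 stood below it by a log2 difference of -0.86 ± 0.17 (adjusted p = 0.000278).

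TGFBR2 encodes the type II receptor that binds the ligand first, and lies at chr3:30606502-30694142 on the plus strand. It was at 74.4, 79.1 and 79.4 CPM in DU145 and under 2 CPM elsewhere. 22Rv1 had 1.48, 1.52 and 1.63 CPM, C4-2B 0.498, 0.541 and 0.694 CPM and C4-2 0.457, 0.502 and 0.510 CPM, the last from 13.9 to 17.1 counts per library. DU145 was above 22Rv1 by 5.67 ± 0.18 (adjusted p = 5.85e-14), and 22Rv1 above C4-2 by 1.61 ± 0.29 (adjusted p = 0.000121). The gene reached the limit of 100 counts for testing in DU145 alone. Its counts were divided over 2 protein-coding transcripts, with 54.1% and 45.9%.

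TGFBR3 encodes betaglycan, the co-receptor that presents ligands and also binds inhibin, and lies at chr1:91680343-91906335 on the minus strand. It was the single member called between C4-2B, with 6.42, 7.59 and 7.70 CPM, and C4-2, with 4.46, 5.04 and 5.14 CPM. The log2 difference was 0.61 ± 0.13 (adjusted p = 0.00332), and the groups did not overlap. DU145 had 4.25, 4.30 and 4.65 CPM and overlapped C4-2, from which it differed by -0.18 ± 0.13 (adjusted p = 0.207). 22Rv1 was lowest at 1.41, 1.52 and 1.59 CPM, with a difference of -2.36 ± 0.14 from C4-2B (adjusted p = 3.05e-10).

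Per length, the balance of the receptors differed between lines. In DU145 TGFBR2 was at 17.3 ± 0.70 TPM, TGFBR1 at 9.24 ± 4.3 TPM and TGFBR3 at 0.921 ± 0.074 TPM. In C4-2 the order was TGFBR1 at 2.87 ± 0.19 TPM, TGFBR3 at 1.21 ± 0.16 TPM and TGFBR2 at 0.107 ± 0.0062 TPM. C4-2B had the same order, with TGFBR2 at 0.125 ± 0.023 TPM, and in 22Rv1 TGFBR2 and TGFBR3 were at 0.330 ± 0.018 and 0.302 ± 0.079 TPM, which overlapped. Over coding transcripts alone TGFBR3 in 22Rv1 was at 0.227 to 0.279 TPM and did not overlap TGFBR2.

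**Figure D2:**
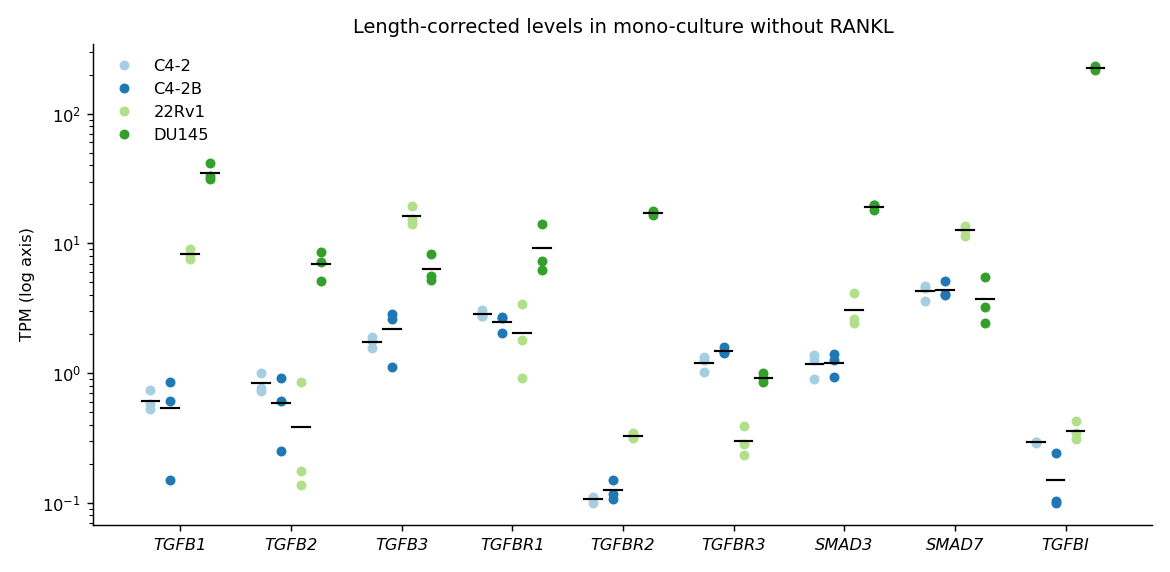
Points are the 3 mono-cultures of each line without RANKL and short lines their means, in TPM summed over all transcripts, coding or not, on a log axis, for the members other than INHBA. TGFBR2 is near 0.1 TPM in C4-2 and C4-2B and at 17.3 TPM in DU145, while TGFBR3 is lowest in 22Rv1.

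SMAD3, a receptor-activated transcription factor, lies at chr15:67063763-67195195 on the plus strand. It was highest in DU145 and next in 22Rv1, as were TGFB1 and TGFBR2, with 52.0, 54.7 and 55.8 CPM in DU145 and 10.1, 11.4 and 11.5 CPM in 22Rv1. C4-2 had 2.41, 2.53 and 2.63 CPM and C4-2B had 2.50, 2.64 and 3.08 CPM. C4-2 and C4-2B overlapped (0.16 ± 0.17, adjusted p = 0.639). DU145 was above 22Rv1 by 2.32 ± 0.13 (adjusted p = 6.19e-11), and 22Rv1 above C4-2 by 2.07 ± 0.15 (adjusted p = 4.14e-09).

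SMAD7, the inhibitory SMAD that blocks the type I receptor, lies at chr18:48919853-48952052 on the minus strand. It was highest in 22Rv1, at 22.2, 22.9 and 25.8 CPM, and the other lines lay between 6.75 and 8.77 CPM. DU145 was below C4-2B by a log2 difference of -0.35 ± 0.12 (adjusted p = 0.0138), which was not called with protein-coding transcripts alone (-0.30, adjusted p = 0.193), and differed from C4-2 by -0.19 ± 0.12 (adjusted p = 0.156).

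TGFBI encodes a secreted matrix protein named for its induction by TGF-beta and lies at chr5:136028895-136063818 on the plus strand. It was abundant in DU145 alone, the 1 line in which it reached 100 counts. DU145 mono-cultures had 498, 513 and 523 CPM, whereas 22Rv1 had 0.371, 0.880 and 0.977 CPM, C4-2 0.295, 0.372 and 0.520 CPM and C4-2B 0.0889, 0.194 and 0.320 CPM. The log2 difference of DU145 from 22Rv1 was 9.40 ± 0.19 (adjusted p = 2.3e-16). In C4-2B 1 library had 2.68 counts, under the detection limit of 3. The longest coding transcript held 79% of the counts in DU145 but 5.72% in C4-2, 26.3% in C4-2B and 32.1% in 22Rv1, so the low counts of these lines lay largely on other transcripts. 22Rv1 was above C4-2 by 0.88 ± 0.34 (adjusted p = 0.0273), on 8.19 to 31.5 counts per library in a gene that entered the fit through DU145, a call lost without 22Rv1 replicate 2 or 3 or C4-2 replicate 2 or 3 (adjusted p = 0.0799, 0.196, 0.091 and 0.0647).

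INHBA encodes the activin A subunit and lies at chr7:41667168-41705834 on the minus strand. It was close to the detection limit in 3 lines, with 1.98 to 3.15 counts per library in C4-2, 2.77 to 4.34 in C4-2B and 4.38 to 6.21 in DU145. 22Rv1 had 0.526, 0.799 and 0.952 CPM, from 17.0 to 22.8 counts, above every mono-culture of the other lines. Without the limit of 100 counts, 22Rv1 was above C4-2B by 2.74 ± 0.57 on the log2 scale (adjusted p = 0.000573, edgeR) and DU145 below 22Rv1 by -2.20 ± 0.55 (adjusted p = 0.00233).

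The shares of all genes called were 79.6% for DU145 against 22Rv1 and 79.0% for DU145 against C4-2B. Of the 7 genes of ligand storage and activation that could be tested, of 11 listed, 5 were higher and 1 lower in DU145 than in 22Rv1, and 4 were higher and 3 lower than in C4-2B. LTBP2, a matrix protein of the latent TGF-beta binding family, was above C4-2B in DU145 by 3.11 ± 0.23 (adjusted p = 1.92e-09), and LTBP1, which ties the latent ligand to matrix, by 2.13 ± 0.16 (adjusted p = 2.80e-09). THBS1, thrombospondin 1, an activator of the latent ligand, was lower in DU145, with a difference of -2.53 ± 0.094 (adjusted p = 2.63e-13). Its level was 158 ± 2.9 CPM (SD, n = 3) in C4-2B mono-cultures, 97.1 ± 4.1 CPM in those of C4-2 and 28.8 ± 1.4 CPM in those of DU145.

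Among the 17 tested genes of SMADs and regulators, of 18 listed, 6 were higher and 8 lower in DU145 than in C4-2B. BAMBI, a decoy receptor without a kinase, was lower in DU145 with a difference of -5.16 ± 0.096 (adjusted p = 5.96e-17), as was PMEPA1, a membrane inhibitor that the pathway induces, with -3.33 ± 0.063 (adjusted p = 7.22e-17). TGIF1, a nuclear co-repressor, was higher in DU145 than in 22Rv1 by 2.31 ± 0.094 (adjusted p = 1.05e-12).

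Of 22 tested response genes, of 24 listed, 15 were higher and 7 lower in DU145 than in C4-2B, with a median log2 difference of 1.67 over the list. ADAM19, a membrane metalloprotease, was at 13.9 to 14.2 CPM in DU145 and at no more than 0.0392 CPM in any mono-culture of the other lines. COL4A1, a basement membrane collagen, was at 24.2 to 24.5 CPM in DU145 and at most 0.207 CPM elsewhere. CCN2, a matricellular growth factor gene, was at 13.7 to 14.2 CPM in DU145, 1.83 to 2.70 CPM in 22Rv1 and at most 0.0463 CPM in C4-2 and C4-2B.

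In the activin branch 5 of 10 listed genes could be tested. INHBB, the activin B subunit, was at 11.2 to 13.3 CPM in 22Rv1 and at most 0.058 CPM in DU145. FSTL3, which binds activin, was higher in DU145 than in C4-2B by 2.19 ± 0.19 (adjusted p = 2.34e-08), and ACVR2B, an activin type II receptor, higher in 22Rv1 than in C4-2 by 2.18 ± 0.20 (adjusted p = 4.32e-08).

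The comparison with MG63 cells addressed what the cancer cells express beside osteoblast-like cells. TGFB1 rose in both osteolytic lines, TGFBR3 rose in both osteoblastic lines, SMAD7 fell in 22Rv1 and TGFBR2 fell in DU145. These were 6 of 36 member tests. In C4-2 1 of 9 members was called, against 10.1% of all genes, in C4-2B 1 of 9 (7.41%), in DU145 2 of 9 (30.5%) and in 22Rv1 2 of 9 (20.4%). In no line was the share of members called far from that of all genes.

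TGFB1 in DU145 was at 74.2 and 110 CPM beside MG63 cells against 59.3 to 66.0 CPM alone, so both co-cultures were above all mono-cultures. The log2 fold change was 0.64 ± 0.12 (adjusted p = 0.00176, edgeR). The DU145 co-cultures stood far apart from each other: it was 0.34 without replicate 2 (adjusted p = 0.0223) and 0.89 without replicate 1 (adjusted p = 2.7e-07). Where 1 of 2 libraries of a group is left out, here and below, the remaining one is assumed to vary like the other groups. In 22Rv1 TGFB1 was at 16.9 and 18.4 CPM beside MG63 cells against 10.2 to 10.8 CPM alone, a rise of 0.86 ± 0.14 (adjusted p = 0.000551). Per length over all transcripts, the groups overlapped in both lines. 22Rv1 had 7.57 and 8.57 TPM beside MG63 cells against 7.63 to 9.01 TPM alone, and DU145 34.2 and 84.65 TPM against 31.4 to 41.4 TPM. In C4-2 the co-cultures had 0.420 and 0.650 CPM and in C4-2B 0.339 and 0.391 CPM, from 4.74 to 10.0 counts per library, and neither line was called.

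The effect of MG63 cells on TGFB1 differed between phenotypes by -1.26 ± 0.31 for BPCa minus LPCa (adjusted p = 0.0184). This was 1 of 3 members for which the difference of effects was called, among 9 members and against 9.85% of all genes. The call was lost without C4-2 co-culture replicate 1 (adjusted p = 0.0714) or C4-2B co-culture replicate 1 or 2 (adjusted p = 0.0563 and 0.0582). TGFB1 was also not called with mono-cultures thinned to the depth of the other libraries (-1.39, adjusted p = 0.0555). With RANKL mono-cultures as control the difference had the opposite sign and was not called.

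TGFB2 and TGFB3 were not called in any line. TGFB2 in DU145 was at 10.0 and 15.7 CPM beside MG63 cells and 19.1 to 20.8 CPM alone, which did not overlap, with a log2 difference of -0.56 ± 0.31 (adjusted p = 0.176). It was called without co-culture replicate 1 (-0.94, adjusted p = 0.0387) and with protein-coding transcripts alone (-0.66, adjusted p = 0.0287). TGFB2 in C4-2, at 1.01 and 1.31 CPM against 2.20 to 2.75 CPM, did not overlap either (-0.99 ± 0.45, adjusted p = 0.199). TGFB3 in C4-2B was at 0.738 and 0.789 CPM against 1.3 to 1.58 CPM, again without overlap (-0.83 ± 0.37, adjusted p = 0.213). The share of all genes that separate groups of 2 and 3 in this way was not counted. Here and below, such a separation without a call is not read as a change. In 22Rv1, where TGFB3 was highest, the groups overlapped.

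TGFBR3 rose from 4.46 to 5.14 CPM in C4-2 alone to 8.16 and 10.9 CPM beside MG63 cells, by 1.07 ± 0.14 (adjusted p = 0.000154). In C4-2B it rose from 6.42 to 7.70 CPM to 10.6 and 11.7 CPM, by 0.69 ± 0.14 (adjusted p = 0.0063). The C4-2B call was lost without co-culture replicate 1 (0.61, adjusted p = 0.106). DU145 had 4.03 and 5.29 CPM and 22Rv1 0.909 and 1.2 CPM beside MG63 cells, neither called. The difference of the effects was 0.98 ± 0.17 for BPCa minus LPCa (adjusted p = 0.00224). With RANKL mono-cultures as control this difference had the opposite sign and was not called. KLK3 in C4-2B fell from 5338 to 5529 CPM alone to 3908 to 4093 CPM beside MG63 cells and 3204 to 3286 CPM with RANKL (adjusted p = 0.0131 and 5.69e-06). In C4-2 KLK3 was at 4603 to 4759 CPM alone, 3583 to 3632 CPM beside MG63 cells and 3795 to 3918 CPM with RANKL, and neither difference was called (adjusted p = 0.0585 and 0.102). KLK3 is 1 of 6 androgen receptor positive prostate markers. In C4-2B 0 of them were called higher and 4 lower beside MG63 cells, and 2 higher and 4 lower with RANKL. In C4-2 0 were called higher and 1 lower beside MG63 cells, and 2 higher and 1 lower with RANKL. The part of these markers in the TGFBR3 values was not tested.

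TGFBR2 entered the fit through its counts in DU145, and its levels in C4-2 and C4-2B rested on 12.5 to 22.9 counts per library. In C4-2 it was at 1.04 and 1.21 CPM beside MG63 cells against 0.457 to 0.510 CPM alone, and in C4-2B at 0.914 and 1.17 CPM against 0.498 to 0.694 CPM, from 12.5 to 17.2 counts per co-culture library. Neither group overlapped its control, with log2 differences of 1.3 ± 0.41 (adjusted p = 0.0527) and 0.93 ± 0.41 (adjusted p = 0.197). Both were called when either DU145 co-culture was left out of the common fit (adjusted p = 0.00167 and 0.0354 without replicate 1, 0.00166 and 0.0354 without replicate 2). The C4-2 value was also called without DU145 mono-culture replicate 1 or 3 (adjusted p = 0.0497 and 0.0496). The 16 MG63 markers summed to 10.7 to 16.1 CPM in the C4-2 co-cultures against 12.8 to 13.4 CPM alone and to 12.4 to 12.6 CPM in those of C4-2B against 12.6 to 14.5 CPM, and the median log2 difference of the 6 that could be tested was 0.37 in C4-2 and -0.24 in C4-2B. Their part in the TGFBR2 level was not tested.

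In DU145 TGFBR2 was at 36.1 and 64.2 CPM beside MG63 cells, below the 74.4 to 79.4 CPM of the mono-cultures. The fold change was -0.55 ± 0.15 (adjusted p = 0.0147), but -0.19 without co-culture replicate 2 (adjusted p = 0.113) and -1.04 without replicate 1 (adjusted p = 4.77e-08). The difference of effects between phenotypes was 1.53 ± 0.34 (adjusted p = 0.0118), and between 1.35 and 1.77 with 1 library left out. It rested on a gene that entered the fit through DU145, and neither C4-2 nor C4-2B was called on its own. With thinned mono-cultures the TGFBR2 difference was not called (1.26, adjusted p = 0.0541), nor with RANKL mono-cultures as control. The summed level of 4 DU145 markers was 1352 to 1833 CPM in DU145 beside MG63 cells and 2015 to 2071 CPM alone, with 0 of 4 called higher and 2 lower, and its part in the TGFBR2 values was not tested. TGFBR1 was not called in any line in the full fit.

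SMAD7 in 22Rv1 was at 12.2 and 13.5 CPM beside MG63 cells and 22.2 to 25.8 CPM alone, and fell by 0.77 ± 0.13 on the log2 scale (adjusted p = 0.00082). The other lines were not called. C4-2 had 5.45 and 6.10 CPM, C4-2B had 5.51 and 8.11 CPM, and DU145 had 4.74 and 5.58 CPM. SMAD3 was not called in any line, and the DU145 co-cultures differed widely, at 38.5 and 58.9 CPM against 52.0 to 55.8 CPM alone. TGFBI was at 478 and 555 CPM in DU145 beside MG63 cells against 498 to 523 CPM alone, which overlapped.

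Without DU145 co-culture replicate 1, 12 of 36 member tests were called in place of 6, with 1 library left in that group. The added ones were TGFBR2 in C4-2 and C4-2B, SMAD3 in C4-2B (adjusted p = 0.0448), and in DU145 TGFB2, SMAD3 (-0.43, adjusted p = 0.00358) and TGFBR1 (-0.45, adjusted p = 0.0487). The difference of the SMAD3 effect between phenotypes was also called without that library (0.51, adjusted p = 0.00565).

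Most of these calls were not made against the other mono-cultures. Set against the mono-cultures with RANKL, which were of like depth, TGFB1 differed by 0.18 in DU145 (adjusted p = 0.429) and 0.36 in 22Rv1 (adjusted p = 0.299), TGFBR2 by -0.05 in DU145 (adjusted p = 0.868), and TGFBR3 by 0.04 in C4-2 and -0.04 in C4-2B (adjusted p = 0.965 and 0.972). SMAD7 in 22Rv1 stayed lower by -0.71 (adjusted p = 0.0344). SMAD3 in 22Rv1 (1.01, adjusted p = 0.019) and TGFBR3 in DU145 (1.00, adjusted p = 0.00775) were called against that control. When the mono-cultures without RANKL were thinned to the depth of the other libraries, 6 member tests were called. RANKL and depth differed together between both kinds of mono-culture and cannot be told apart.

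**Figure D3:**
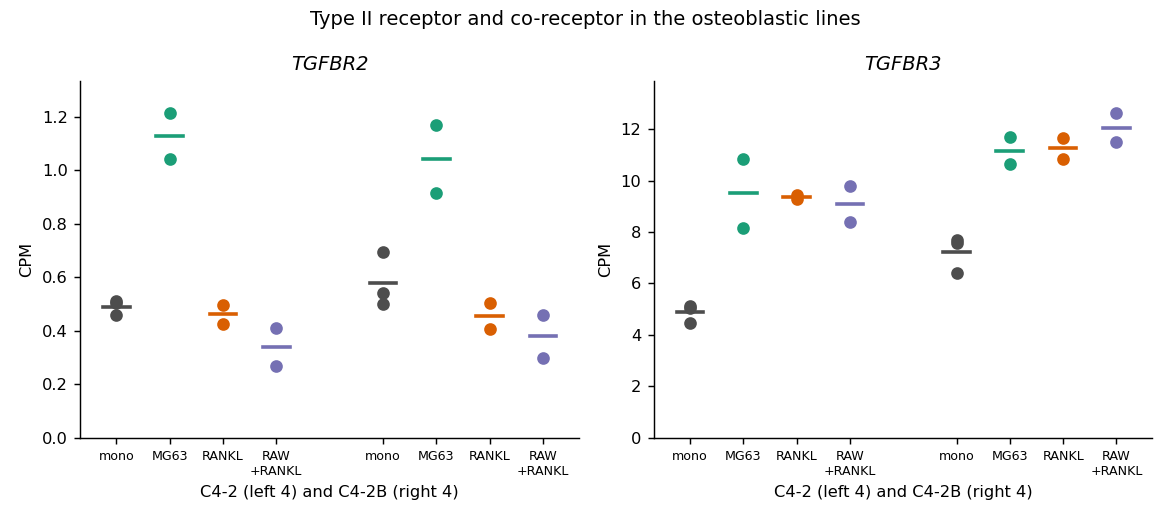
Points are single cultures and lines the group means in CPM, for C4-2 (left 4 groups) and C4-2B (right 4 groups). TGFBR2 is above 0.9 CPM in MG63 co-cultures and under 0.7 CPM in all other cultures, whereas TGFBR3 is above 8 CPM in MG63, RANKL and RAW264.7 cultures alike.

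In the pathway lists, BAMBI rose beside MG63 cells in C4-2 (0.85 ± 0.082), DU145 (0.96 ± 0.14, adjusted p = 0.000311) and 22Rv1 (0.91 ± 0.11), and 7 tests were higher and 7 lower among 68 of SMADs and regulators. Here and in the other lists below, 7.41% to 30.5% of all genes were called in the 4 lines. BAMBI in C4-2 averaged 109 CPM beside MG63 cells, 65.5 CPM alone and 57.3 CPM alone with RANKL. LDLRAD4, an inhibitor of the pathway, fell in 22Rv1 by 2.39 ± 0.47 (adjusted p = 0.00204), from 1.87 to 2.00 CPM to 0.148 and 0.613 CPM. TRIM33, a ubiquitin ligase that acts on SMAD4, rose in DU145 by 0.88 ± 0.11 (adjusted p = 0.000108).

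Among storage and activation genes 4 tests were higher and 3 lower of 28. THBS1 rose in C4-2 by 0.91 ± 0.097 (adjusted p = 1.82e-05), to a mean of 170 CPM from 97.1 CPM, where cultures alone with RANKL had 151 CPM. LTBP4, a latent ligand binding protein, fell in C4-2 by 0.55 ± 0.15 (adjusted p = 0.0251), and FURIN, the protease that cleaves the ligand precursor, rose in C4-2B by 0.34 ± 0.091 (adjusted p = 0.0332). Among response genes 10 tests were higher and 11 lower of 88. FN1, fibronectin, rose in all 4 lines, by 1.43 ± 0.084 in C4-2 (adjusted p = 3.38e-08), where it averaged 1356 CPM beside MG63 cells, 542 CPM alone and 821 CPM alone with RANKL. ANGPTL4 rose in DU145 by 1.77 ± 0.20 (adjusted p = 4.80e-05), with 45.7 and 90.6 CPM in its co-cultures, and IL11, a cytokine gene, fell in C4-2B by 1.90 ± 0.40 (adjusted p = 0.00812). In the activin branch FSTL3 rose in 22Rv1 by 0.98 ± 0.21 (adjusted p = 0.00396) and ACVR1B, a type I activin receptor, fell in DU145 by 0.22 ± 0.067 (adjusted p = 0.0213).

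RANKL alone, tested between mono-cultures with and without it, gave 10 member calls of 36, in a fit of all 36 samples. Most lay in DU145, where 6 of 9 members were called, 3 higher and 3 lower, against 32.5% of all 13454 genes tested. C4-2 had 2 of 9 (18.3% of all genes), C4-2B 1 of 9 (14.4%) and 22Rv1 1 of 9 (17.7%). The MG63 and RANKL comparisons share their mono-cultures, so their values are not independent of each other, and the cultures with RANKL are also the controls for RAW264.7. Depth also went with RANKL, and 10 member tests were called after thinning. Over these tests and the differences of effects, 1 call was gained and 1 was lost.

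In DU145 TGFB1 was at 78.5 and 83.4 CPM with RANKL against 59.3 to 66.0 CPM, a rise of 0.49 ± 0.14 (adjusted p = 0.0114, edgeR). TGFB3 was at 5.86 and 6.57 CPM against 3.46 to 4.61 CPM, a rise of 0.76 ± 0.26 (adjusted p = 0.0292). SMAD3 was at 67.6 and 69.2 CPM against 52.0 to 55.8 CPM, a rise of 0.44 ± 0.11 (adjusted p = 0.00424). All 3 groups lay above their controls without overlap.

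TGFBR2 fell to 50.7 and 53.6 CPM, by 0.47 ± 0.12 (adjusted p = 0.00419), and TGFBR3 to 2.33 and 2.37 CPM from 4.25 to 4.65 CPM, by 0.81 ± 0.15 (adjusted p = 0.000165). TGFBI fell to 331 and 347 CPM from 498 to 523 CPM, by 0.49 ± 0.15 (adjusted p = 0.0117). The DU145 cultures with RANKL thus had more TGFB1 and TGFB3 transcript and less of the type II receptor, betaglycan and TGFBI transcripts.

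Several of these calls rested on single libraries. Without DU145 RANKL replicate 2, TGFB1 (0.45, adjusted p = 0.0886), TGFB3 (0.68, adjusted p = 0.17), TGFBR2 (-0.42, adjusted p = 0.0625) and TGFBI (-0.52, adjusted p = 0.0618) were not called, which left 6 of 36. Without replicate 1, TGFB3 (adjusted p = 0.0931) and TGFBI (adjusted p = 0.0753) were not called, and TGFB3 was also lost without DU145 mono-culture replicate 1 or 3 (adjusted p = 0.0642 and 0.0904). SMAD3 and TGFBR3 kept their calls with any 1 library left out.

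Epithelial genes moved with these members in DU145. EPCAM, an epithelial adhesion gene, was at 84.5 and 89.9 CPM with RANKL and 79.4 and 86.1 CPM beside RAW264.7 cells, against 14.5 to 21.6 CPM alone and 12 and 20.6 CPM beside MG63 cells. CDH1, E-cadherin, was at 21.7 and 24.7 CPM with RANKL against 10.0 to 13.6 CPM alone. All 4 epithelial markers were higher with RANKL, and their summed level was 1780 to 1786 CPM with RANKL and 1053 to 1082 CPM without. The summed level of 4 DU145 markers was 2331 to 2387 CPM with RANKL and 2015 to 2071 CPM without. These genes were singled out after their values were seen, and their part in the member values was not tested.

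**Figure D4:**
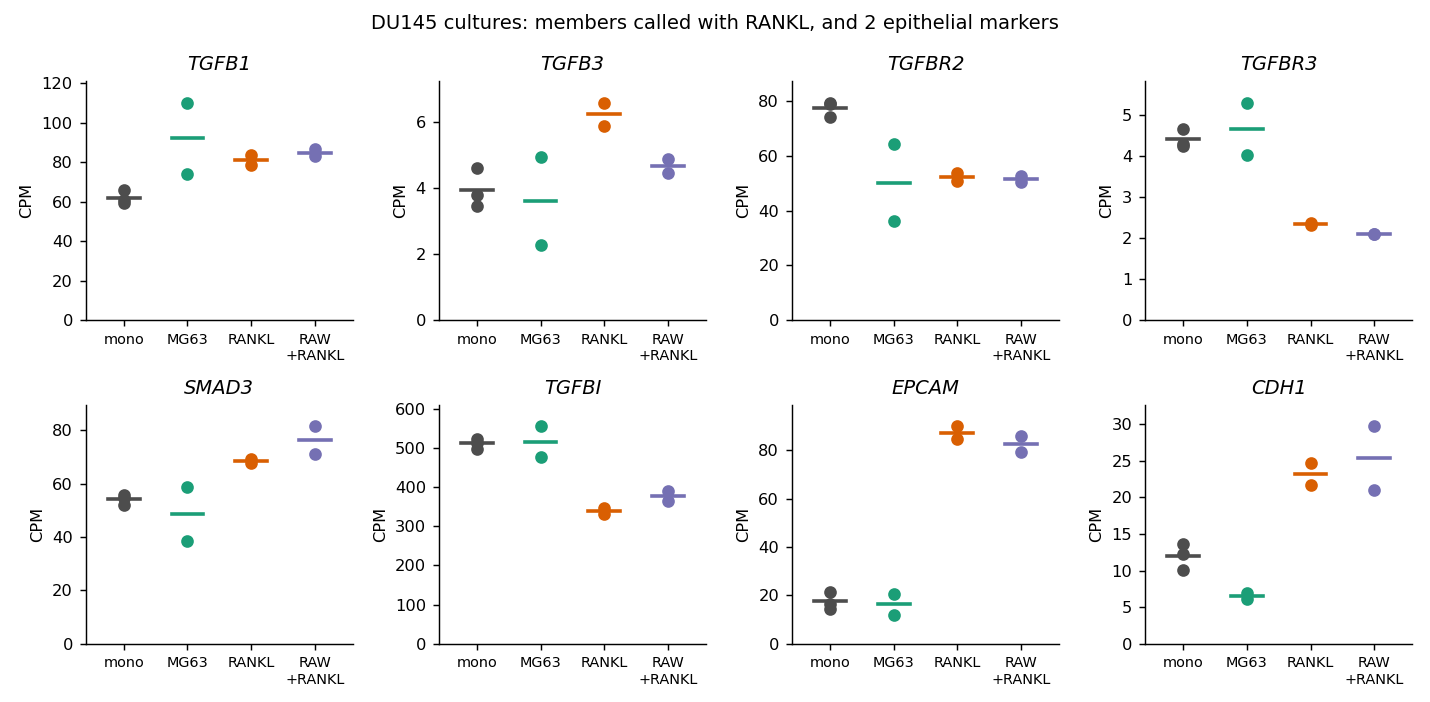
Points are single DU145 cultures and lines the group means in CPM, for the 6 members called with RANKL and for EPCAM and CDH1. In each panel the RANKL cultures lie to 1 side of all mono-cultures, and the MG63 co-cultures of TGFB1, TGFBR2 and SMAD3 lie far apart from each other.

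In the osteoblastic lines TGFBR3 was the member that rose, from 4.46 to 5.14 CPM to 9.29 and 9.44 CPM in C4-2, by 1.02 ± 0.12 (adjusted p = 1.64e-06), and from 6.42 to 7.70 CPM to 10.9 and 11.7 CPM in C4-2B, by 0.72 ± 0.12 (adjusted p = 0.000138). Both calls held with any 1 library left out. The summed level of 4 DU145 markers was 7.84 to 9.95 CPM with RANKL and 19.1 to 21.3 CPM alone in C4-2, with 1 called lower. The median log2 difference of the 4 in C4-2 was 0.65, opposite in sign to the fall of the sum. In C4-2B the summed level was 12.7 to 13.7 CPM with RANKL and 4.17 to 5.17 CPM alone, with 1 called higher and a median log2 difference of 1.28. The called gene was VIM, the filament protein vimentin, in both lines, at 6.45 to 8.61 CPM against 18.4 to 20.4 CPM alone in C4-2 and 10.9 to 12.5 CPM against 3.45 to 4.33 CPM alone in C4-2B, and the part of these markers in the TGFBR3 values was not tested. SMAD7 rose in C4-2 by 0.43 ± 0.14 (adjusted p = 0.0286), from 6.75 to 8.62 CPM to 9.33 and 10.3 CPM. It was not called without C4-2 mono-culture replicate 2 or 3 (adjusted p = 0.112 and 0.0542) or RANKL replicate 1 or 2 (adjusted p = 0.272 and 0.0659), nor with protein-coding transcripts alone (adjusted p = 0.23).

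In 22Rv1 the epithelial markers summed to 672 to 688 CPM alone, 862 to 906 CPM with RANKL and 911 to 954 CPM beside MG63 cells, with 2 of 4 called higher with RANKL and 3 of 4 beside MG63 cells, and their part in the 22Rv1 calls of SMAD3, TGFB1 and SMAD7 was not tested. SMAD3 fell in 22Rv1, from 10.1 to 11.5 CPM to 5.55 and 5.85 CPM, by 0.92 ± 0.17 (adjusted p = 0.000313). The effect of RANKL on SMAD3 differed between the osteolytic lines by 1.36 ± 0.20 for DU145 minus 22Rv1 (adjusted p = 2.54e-05). SMAD3 was the 1 member of 9 for which this difference was called, against 20.6% of all genes.

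Between phenotypes 2 of 9 members differed in their RANKL effect, against 16.5% of all genes. TGFBR3 differed by 1.33 ± 0.15 for BPCa minus LPCa (adjusted p = 5.9e-07) and TGFB1 by -1.74 ± 0.47 (adjusted p = 0.0105). The TGFB1 value rested on 1.78 to 4.13 counts per library in the C4-2 and C4-2B cultures with RANKL, and was not called without C4-2 RANKL replicate 1 (-1.47, adjusted p = 0.0655). Calls also appeared on leaving out 1 library. In C4-2 TGFBI was called without RANKL replicate 1 (2.04, adjusted p = 0.0396) but was at 0.26 without replicate 2 (adjusted p = 0.899). TGFB3 in C4-2 was called without RANKL replicate 2 (1.21, adjusted p = 0.0162) and had the opposite sign without replicate 1 (-0.63, adjusted p = 0.472). The phenotype difference of TGFBI (1.52 ± 0.55, adjusted p = 0.0625) was called without 22Rv1 mono-culture replicate 1, C4-2B mono-culture replicate 1, C4-2 RANKL replicate 1 or C4-2B RANKL replicate 2 (adjusted p = 0.0295, 0.0395, 0.0213 and 0.00572), but had the opposite sign without C4-2B RANKL replicate 1 (-1.63, adjusted p = 0.603). The difference of SMAD7 (0.33, adjusted p = 0.112) was called without 22Rv1 RANKL replicate 2 (0.43, adjusted p = 0.0373).

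TGFBI in C4-2B with RANKL was at 0.938 CPM in 1 library and at 0 counts in the other. INHBA in 22Rv1 was at 1.49 and 2.21 CPM with RANKL and 0.526 to 0.952 CPM without, which did not overlap, with a log2 difference of 1.23 ± 0.61 when tested without the count limit (adjusted p = 0.278).

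The pathway lists are given beside the share of all genes called with RANKL, 14.4% to 32.5% in the 4 lines. SMADs and regulators had 7 higher and 10 lower tests of 68, storage and activation genes 7 higher and 3 lower of 28, response genes 13 higher and 16 lower of 88 and the activin branch 2 higher and 4 lower of 20. SMAD2 fell in DU145 by 0.61 ± 0.090 (adjusted p = 9.57e-06), LDLRAD4 rose in C4-2 by 0.99 ± 0.26 (adjusted p = 0.00802), and ENG, the co-receptor endoglin, fell in C4-2B by 1.06 ± 0.36 (adjusted p = 0.047). INHBB fell in C4-2B by 1.29 ± 0.19 (adjusted p = 3.38e-05).

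LTBP2 rose in DU145 by 0.99 ± 0.19 (adjusted p = 0.000214), and FURIN and THBS1 rose in C4-2 by 0.82 ± 0.092 (adjusted p = 6.48e-07) and 0.72 ± 0.099 (adjusted p = 1.10e-05). SNAI2, a repressor of epithelial genes, fell in 22Rv1 by 2.34 ± 0.22 (adjusted p = 3.25e-08) and HMGA2, a chromatin protein gene, rose in DU145 by 2.16 ± 0.28 (adjusted p = 1.65e-06). CCN2 in C4-2B was at 0.286 and 0.315 CPM with RANKL and at most 0.0441 CPM without. ACVR2A, an activin type II receptor, fell in DU145 by 0.49 ± 0.13 (adjusted p = 0.00799) and ACVR1B in 22Rv1 by 0.28 ± 0.079 (adjusted p = 0.0147).

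RAW264.7 cells were tested against mono-culture with both arms holding RANKL. No member was called in any line, in edgeR (0 of 36 tests) or in DESeq2 (0 of 36), and 3 of 36 had an unadjusted p under 0.05, 1 in C4-2 and 2 in 22Rv1. Few genes were called at all, 0.0174% of 11525 tested in C4-2, 0.139% in C4-2B, 0.0260% in DU145 and 0.00868% in 22Rv1. Within the 4 lines the 4 pathway lists had 0 calls, with 8, 0, 0 and 6 tests at an unadjusted p under 0.05 among SMADs and regulators, storage and activation genes, the activin branch and response genes. The difference of the effect between phenotypes was called for PMEPA1 (-0.44 ± 0.070 for BPCa minus LPCa, adjusted p = 0.0282), as for 0.0781% of all genes in that comparison, and PMEPA1 is named after its value was seen.

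The members with the most counts were measured closely in this comparison. In DU145 TGFB1 was at 83.2 and 86.5 CPM beside RAW264.7 cells and 78.5 and 83.4 CPM without them, a log2 difference of 0.05 ± 0.14. TGFBR2 was at 50.5 and 52.7 CPM against 50.7 and 53.6 CPM (-0.03 ± 0.08), and TGFBI at 364 and 391 CPM against 331 and 347 CPM (0.14 ± 0.11). TGFBR3 differed by -0.04 ± 0.14 in C4-2 and 0.11 ± 0.13 in C4-2B. Sparse members were measured poorly, such as TGFB1 in C4-2, at 0.342 and 0.692 CPM against 0.133 and 0.328 CPM (0.99 ± 0.88).

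The 3 genes whose log2 levels followed each member most closely over the 16 group means are given as a description. The points share the 4 lines and the depth, so any gene that separates the lines in the same order scores high. TGFB1 was nearest to ANXA4, TPBG and HTATIP2 (r = 0.994 to 0.996, Pearson), TGFBR2 to DLX4, DZIP1L and TRIM6 (0.996 to 0.997), SMAD3 to PRTFDC1, CTHRC1 and SCRN1 (0.993 to 0.995) and TGFBI to DLC1, NKX2-1 and IRAK3 (0.998 to 0.999). TGFBR1 was nearest to ARNTL, TGIF1 and HSPG2 (0.982 to 0.986), TGFB2 to OSBPL7, ANXA8 and PTPRE (0.985 to 0.986) and TGFB3 to ZNF503, KRCC1 and PCLO (0.984 to 0.987). SMAD7 was nearest to OR8A1, SPATA20 and ZNF680 (0.970 to 0.972), INHBA to TMTC1, GATA3 and CFC1 (0.966 to 0.976) and TGFBR3 to CHORDC1, SLPI and EPHX1 (0.963 to 0.966).

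Some counts could be shared with overlapping genes. By GENCODE 29, 26.6% of the exon bases of TGFB2 also belong to TGFB2-OT1 on the same strand. On the opposite strand 6.64% of TGFB1 lies in HNRNPUL1, 3.32% of TGFB3 in TGFB3-AS1 and 2.00% of SMAD3 in AC087482.1, and whether the counting used strand is not given in the sources used here.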

How the data were processed

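Poly-A RNA was sequenced with a strand-specific kit. Using kallisto, the authors made an estimated count for each transcript in each sample and deposited these values without normalization across samples. The submitters' processing notes also name FastQC and the build hg19. The deposited table had 161149 lines and 159837 transcripts, whose repeated lines held identical values and were used once. GENCODE 29 (GRCh38) gave coordinates and lengths, for 95.4% of transcripts and all 79 of the members.

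Transcripts were summed by symbol, 6878 without a symbol (0.526% to 0.764% of counts) staying in library totals alone. All 36 columns were used and 0 were left out. Sums were rounded and tested with edgeR 4.0.16 (TMM, quasi-likelihood) in R 4.3.3, keeping genes that reached 100 counts in any sample of the fit, with 1 mean per line and culture. The line and MG63 comparisons used the 20 samples without RANKL, the RAW264.7 comparison the 16 with it, and the RANKL comparison all 36. Genes were called at a Benjamini-Hochberg adjusted p under 0.05 over all genes tested. SE is the absolute log2 fold change over the square root of F. TPM used annotated transcript lengths. DESeq2 1.42.0, limma 3.58.1, Python 3.11.15, numpy 2.4.6, pandas 2.3.3 and matplotlib 3.10.9 were also used.

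Alternatives were library size scaling, DESeq2, no count filter, a replicate block, each sample left out, the threshold of the study (fold above 2, unadjusted p under 0.05), coding transcripts alone, other samples in the fit, RANKL mono-cultures as control, thinned mono-cultures and TMM-scaled CPM. The members and lists were chosen with earlier results of these data known. All members are named, with up to 3 called genes of largest change per pathway list and kind of comparison and the 3 genes of most alike pattern per member. The detection limits of 3 counts cover counting error alone. TPM over coding transcripts was added after seeing the data.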

Additional observations from a re-analysis of the deposited data

Results flagged for a closer look

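Effects that differed between lines or phenotypes by a test of the difference itself (edgeR's quasi-likelihood test, Benjamini-Hochberg adjusted) are listed here as log2 values. For MG63 co-culture, BPCa minus LPCa, they were TGFB1 (-1.26, adjusted p = 0.0184), TGFBR2 (1.53, adjusted p = 0.0118) and TGFBR3 (0.98, adjusted p = 0.00224). For RANKL, BPCa minus LPCa, they were TGFB1 (-1.74, adjusted p = 0.0105) and TGFBR3 (1.33, adjusted p = 5.9e-07), and for RANKL, DU145 minus 22Rv1, SMAD3 (1.36, adjusted p = 2.54e-05). TGFBR2 rested on 12.5 to 22.9 counts per library in C4-2 and C4-2B and entered the fit through DU145. TGFB1 rested on 4.74 to 10 counts per library in C4-2 and C4-2B beside MG63 cells and 1.78 to 4.13 with RANKL. It entered the fit through DU145 and 22Rv1, and its MG63 and RANKL differences were each lost without certain single libraries. The MG63 and RANKL values share the mono-cultures without RANKL. With RANKL mono-cultures as control none of the MG63 differences was called, and those of TGFB1 and TGFBR3 had the opposite sign. With thinned mono-cultures the MG63 differences of TGFB1 and TGFBR2 were not called. No test for outlying samples was run on groups of 2 and 3, but each sample was left out in turn. The DU145 co-cultures with MG63 cells stood apart from each other.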

How the results depend on the processing

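Between lines 44 member calls were made, 37 to 44 under the alternatives with the count filter and 42 to 44 with 1 sample left out. Without the filter, which adds the tests of INHBA, 47 were made. For MG63 cells 6 calls became 2 at the threshold of the study and 3 with RANKL mono-cultures as control, and 5 to 12 with 1 sample left out. The 3 differences of the MG63 effect became 0 with that control and 1 with thinned mono-cultures, and 2 to 4 with 1 sample left out. With RANKL mono-cultures as control 3 of the called values changed sign: TGFBR3 in C4-2B (-0.04), and BPCa minus LPCa for TGFB1 (0.46) and TGFBR3 (-0.36). For RANKL 10 tests were called, and 3 at the threshold of the study. Of these TGFBR3 in C4-2 was among the 10, and TGFB1 and TGFBI in C4-2 were not. The RANKL calls also changed with 1 sample left out. RAW264.7 gave 0 calls under every alternative run, with 0 to 0 on leaving out samples. The cause of these shifts was not tested. Scaling the group means of CPM by TMM moved 21 by more than their SD and 139 by less, with factors from 0.923 to 1.08.

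Same-numbered samples did not deviate together (correlations from -0.0755 to 0.0656), and the main fit used no pairing. In groups of 2 the deviations mirror each other, so these values cannot tell whether same-numbered cultures were set up together. With the replicate block, 44, 7, 3, 0 and 9 member tests were called for lines, MG63, the difference of effects, RAW264.7 and RANKL. It added TGFBR2 in C4-2 with MG63 (adjusted p = 0.0465) and dropped TGFB3 in DU145 with RANKL (adjusted p = 0.0571). TGFB1, TGFBR2 and TGFBI in C4-2 and C4-2B rested on at most 17.2 counts per library outside the mono-cultures without RANKL.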
